A study of Mus musculus with 14 samples.

Results

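The genes described here encode the proteasome, the protease that degrades ubiquitin-tagged proteins, and the data are lists of transcription factor (TF) binding sites in cells of 5 stages of blood development. Members were chosen by name: every coding gene of the RefSeq mouse annotation (GRCm38) whose symbol starts with Psma, Psmb, Psmc or Psmd followed by a number, which gave 40 genes of 21774 on chromosomes 1 to 19, X and Y. Binding of a gene in a list means that the centre of at least 1 peak lay within 2 kb of one of its transcription start sites (TSS). The naming rule uses no measured value, although proteasome genes were picked as a topic with earlier results of these data known.

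Binding was mapped by chromatin immunoprecipitation and sequencing (ChIP-seq) after in vitro differentiation of 1 mouse embryonic stem (ES) cell line of strain 129, which carries a GFP reporter of brachyury that all groups share. The stages were mesoderm (MES, Bry.GFP+ and FLK1-), hemangioblast (HB, Bry.GFP+ and FLK1+), hemogenic endothelium (HE, Tie2+, cKit+ and CD41-), hematopoietic progenitors (HP, CD41+) and macrophages (MAC, CD11b+). C/EBPβ was mapped at all 5 stages, ELK4 in MES, GATA2 in HB and HP, GATA1 and GFI1B in HP, and RUNX1 and PU.1 (encoded by Spi1) in HP and MAC. Each of the 14 lists stood alone for its factor and stage, so that there was no replicate error to hold a difference against, and shares of genes are given with exact Clopper-Pearson 95% intervals that cover counting error only.

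The lists ran from 72 peaks (MAC RUNX1) to 82866 peaks (MAC PU.1), and 400 bp was the width of every peak. The authors set the peak threshold by eye for each list, so the number of peaks is not an amount of binding, and read depth was not used. MAC C/EBPβ (55471 peaks) and MAC PU.1 held most of the 158488 peaks and are called the long MAC lists. The HE C/EBPβ list, made from few cells with carrier mRNA and histone added, stood apart from the rest: 107 of its 132 peaks (81.1%) overlapped an annotated tRNA gene. The study lists no quantitative PCR enrichment at test regions for MES C/EBPβ, HB C/EBPβ, HB GATA2 and MAC RUNX1. Its authors sequenced them out of confidence in the antibodies. Cell identity was taken from the labels, since RNA was not used here and peak lists hold no expression of marker genes.

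The proteasome is a barrel of stacked rings, closed at its ends by a regulatory cap. Psma genes encode the outer alpha rings that gate the barrel, and Psmb genes the inner beta rings, which hold the cutting sites. Psmc genes encode the ATPases that unfold substrates and push them into the barrel, and most Psmd genes encode the remaining subunits of the cap, which capture substrates and remove ubiquitin. Interferon induces Psmb8, Psmb9 and Psmb10, whose products take the places of those of Psmb5, Psmb6 and Psmb7 to form the immunoproteasome, a variant known for making peptides for MHC class I presentation and abundant in immune cells such as macrophages.

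Of the 40 genes, 35 (87.5%, interval 73.2 to 95.8) were bound in at least 1 list, against 57.7% of all coding genes. Most of this came from macrophages. MAC PU.1 peaks lay at 33 members (82.5%, interval 67.2 to 92.7), against 50.0% of all coding genes. MAC C/EBPβ peaks lay at 22 members (55.0%, interval 38.5 to 70.7), against 36.6%. With a CpG-rich promoter, described further on, 8 of 16 members were in MAC C/EBPβ (50.0%, interval 24.7 to 75.3). The 55.9% of such coding genes lay inside this interval. Proteasome genes are active in nearly every cell type, whereas the coding genes set beside them include many that are silent in blood cells, and the part of gene activity in these shares was not tested.

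**Figure D1:**
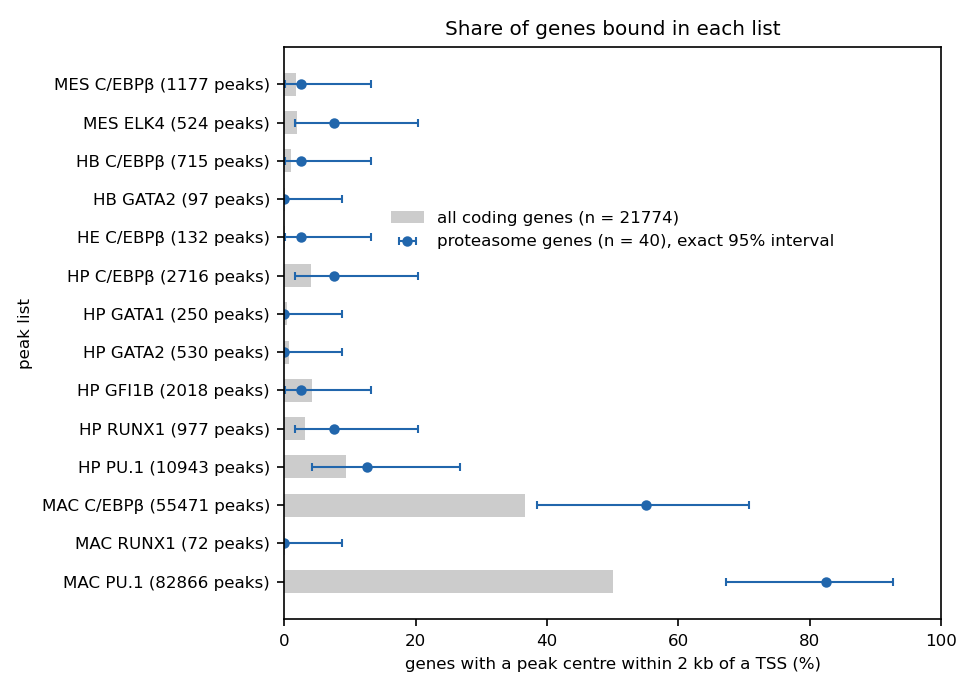
Share of genes bound (x axis, %) in each of the 14 peak lists (y axis, with the number of peaks), for all 21774 coding genes (grey bars) and the 40 proteasome genes (blue points with exact 95% intervals). The points for MAC PU.1 (82.5%) and MAC C/EBPβ (55.0%) lie to the right of their bars (50.0% and 36.6%), and their intervals do not reach the bars. The intervals cover counting error only and are no test, since the genes were picked with earlier results known.

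Outside the long MAC lists the members were seldom bound. In HP, PU.1 peaks lay at 5 members (12.5%, interval 4.19 to 26.8; all coding genes 9.40%), C/EBPβ peaks at 3 (7.50%, interval 1.57 to 20.4; all coding genes 3.97%), RUNX1 peaks at 3 (all coding genes 3.14%) and GFI1B peaks at 1 (2.50%, interval 0.0633 to 13.2; all coding genes 4.19%). In MES, ELK4 peaks lay at 3 members (7.50%, against 1.86% of all coding genes) and C/EBPβ peaks at 1 (against 1.69%). The C/EBPβ lists of HB and HE each held 1 member, where 1.05% and 0.147% of all coding genes were bound. HB GATA2, HP GATA1, HP GATA2 and MAC RUNX1 held no member, and they covered 0.0184%, 0.308%, 0.735% and 0.106% of all coding genes. HB GATA2 and MAC RUNX1 are among the lists without quantitative PCR enrichment. The exact interval of 0 of 40 members reaches 8.81%. In each of these 12 lists the share of all coding genes lay inside the interval of the members.

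Over the 12 lists other than the long MAC lists, 11 members were bound (27.5%, interval 14.6 to 43.9), against 19.4% of all coding genes, which lies inside the interval. The median member was bound in 2 lists and the median coding gene in 1. Binding in 3 or more lists was found for 7 members (17.5%) and for 13.5% of all coding genes.

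Both long MAC lists together held 21 members (52.5%, interval 36.1 to 68.5), against 29.9% of all coding genes. Among genes with a CpG-rich promoter the shares were close, with 7 of 16 members (43.8%) against 47.7%. A further 12 members (30.0%, against 20.1%) had a PU.1 peak and no C/EBPβ peak in MAC: Psma2, Psma3, Psma4, Psma6, Psmc1, Psmc2, Psmc4, Psmd2, Psmd3, Psmd6, Psmd9 and Psmd14. The opposite pattern was seen at 1 member, Psmd5 (2.50%, against 6.71%), which encodes an assembly chaperone of the ATPase ring, and its nearest MAC PU.1 peak lay 34427 bp upstream. Of the 22 members in the MAC C/EBPβ list, 21 (95.5%, against 81.7% over all coding genes) were also in the MAC PU.1 list. These made up 63.6% of the members in the latter, close to the 59.8% over all coding genes. The peaks of both factors overlapped by at least 1 bp at 16 of the 21 (76.2%), against 70.3% over all coding genes bound by both.

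**Figure D2:**
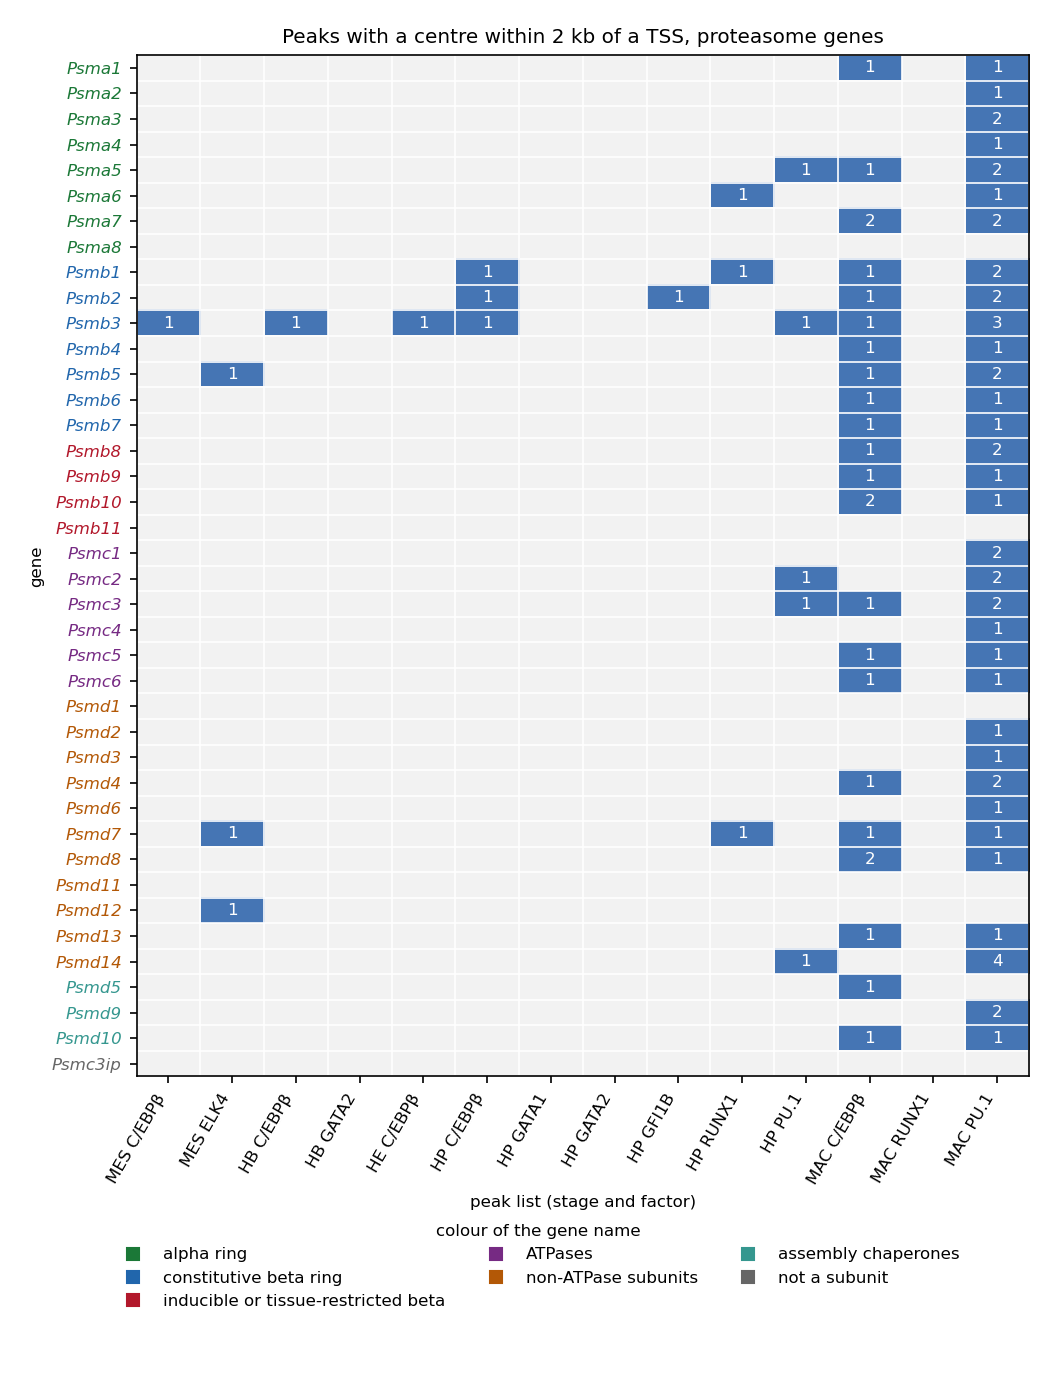
Number of peaks with a centre within 2 kb of a TSS (digits in the blue cells; grey cells have none) for each of the 40 genes (rows, coloured by role) in each of the 14 lists (columns). The columns of MAC C/EBPβ and MAC PU.1 are filled for 22 and 33 genes, Psmb3 is filled in 7 lists, and 5 rows are empty.

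By role, the MAC PU.1 list reached most members of every subunit group, and the MAC C/EBPβ list reached between 3 and 7 per subunit group and 2 of the 3 chaperone genes. Over all coding genes the shares were 50.0% in MAC PU.1, 36.6% in MAC C/EBPβ and 29.9% in both. All 7 constitutive beta genes (Psmb1 to Psmb7) were bound in both long MAC lists. The only MAC C/EBPβ peaks of Psmb1 (-1458 bp), Psmb5 (1742 bp) and Psmb7 (1911 bp) lay beyond 1 kb. A window of 1 kb left these genes out of that list. Among the 8 alpha genes, MAC PU.1 peaks lay at 7 and MAC C/EBPβ peaks at 3 (Psma1, Psma5 and Psma7). All 6 ATPase genes (Psmc1 to Psmc6) had a MAC PU.1 peak, and 3 of them (Psmc3, Psmc5 and Psmc6) also had a MAC C/EBPβ peak. Of the 11 non-ATPase genes of the cap, 8 were in the MAC PU.1 list and 4 (Psmd4, Psmd7, Psmd8 and Psmd13) in both. The 3 chaperone genes Psmd5, Psmd9 and Psmd10 split, with C/EBPβ only at Psmd5, PU.1 only at Psmd9 and both at Psmd10. The groups hold 3 to 11 genes each, and no test was made between them.

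The 5 genes with no peak in any list were Psma8, Psmb11, Psmc3ip, Psmd1 and Psmd11. Psma8 encodes an alpha subunit of the testis, and its nearest peaks in MAC were a C/EBPβ peak 36145 bp upstream and a PU.1 peak 76921 bp downstream. Psmb11 encodes a beta subunit of the thymus cortex, and its nearest MAC PU.1 peak lay 4732 bp downstream. Psmc3ip meets the naming rule through the name of its partner, but its product acts in meiotic recombination and is not a proteasome subunit. Its nearest MAC C/EBPβ peak lay 5188 bp downstream.

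Psmd1 and Psmd11, by contrast, encode general subunits of the cap, a large scaffold and a subunit of the lid. The MAC C/EBPβ and PU.1 peaks nearest to Psmd1 lay 16217 and 16140 bp upstream, and those nearest to Psmd11 lay 7717 and 8040 bp upstream. Psmd12, also a lid subunit, was bound in MES ELK4 and in no other list, with the nearest MAC PU.1 peak 4502 bp downstream. Psmd1, Psmd11 and Psmd12 were the only genes of general subunits without a MAC PU.1 peak, beside the chaperone gene Psmd5.

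PU.1 peaks sat close to the start sites. Taking the peak nearest to the TSS of each bound gene, the median distance in MAC PU.1 was 90 bp for the 33 members and 231 bp for the 10891 coding genes bound. The nearest peak lay within 500 bp at 31 members (93.9%, against 72.2%) and within 100 bp at 19 (57.6%, against 32.2%). Of the 33, 14 (42.4%) had 2 or more MAC PU.1 peaks in the window, a share close to the 38.7% of bound coding genes. Psmd14, which encodes the deubiquitinase of the cap, had 4, and Psmb3, which encodes a beta subunit, had 3.

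MAC C/EBPβ peaks lay farther out, with a median of 306 bp for members and 333 bp for all coding genes bound. They lay within 500 bp at 16 of 22 members (72.7%, against 61.4%) and within 100 bp at 4 (18.2%, against 24.4%). Near the limit of the window, the 5 nearest peaks farthest from the TSS were MAC C/EBPβ at Psmb5 (1742 bp), Psmb7 (1911 bp) and Psma7 (1942 bp), HP RUNX1 at Psmb1 (1676 bp) and HP PU.1 at Psmc3 (1904 bp). The closest peaks left outside it were MAC C/EBPβ peaks at Psma4 (3860 bp) and Psma3 (3922 bp), so no member lay just beyond the limit.

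**Figure D3:**
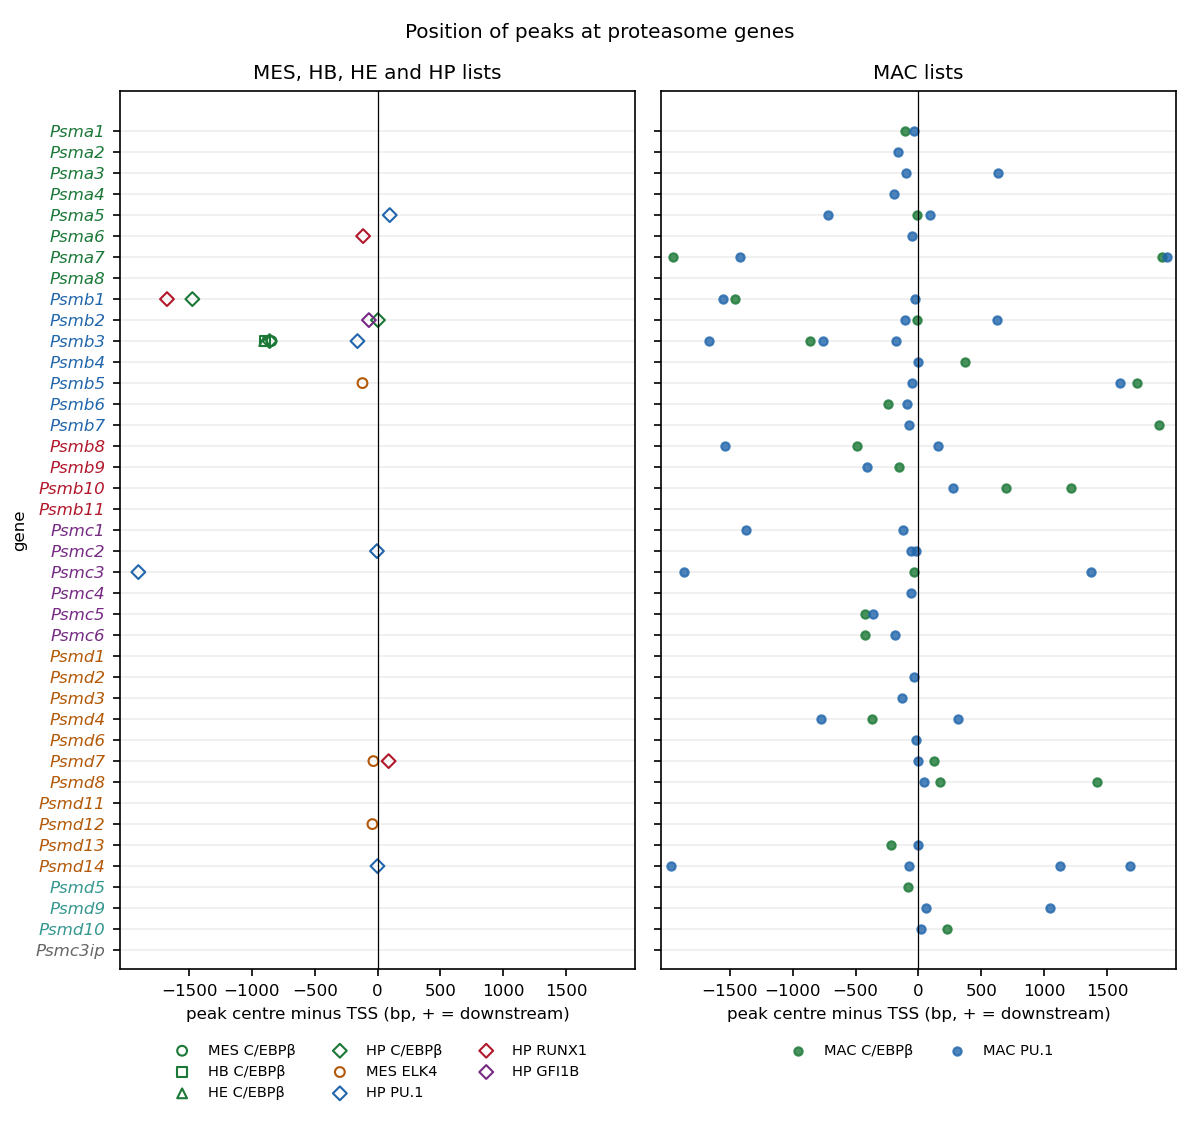
Distance of each peak centre from the TSS (x axis, bp, positive downstream) for each of the 40 genes (y axis, coloured by role as in the plot of peaks per list), with the lists of MES to HP as open symbols and the long MAC lists as filled symbols. Of the 33 genes with MAC PU.1 points, 31 have one within 500 bp of the start site, and the C/EBPβ symbols of all stages stand together at Psmb3, between 844 and 902 bp upstream.

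Psmb3 had peaks in 7 lists, more than any other member, where 9 was the highest number for any coding gene. All 5 C/EBPβ lists placed a peak at nearly the same position upstream of its TSS, at -844 bp for MES cells, -859 bp for HP, -861 bp for MAC, -898 bp for HB and -902 bp for HE. Each of these peaks covered all 74 bases of the asparagine tRNA gene n-TNgtt8 (chr11:97702449-97702522, minus strand, GRCm38). A MAC PU.1 peak at -763 bp (chr11:97702472-97702871) covered 51 of the 74. Psmb3 was the only member with a tRNA gene within 2 kb. Among C/EBPβ lists, peaks on tRNA genes made up 81.1% of the HE list, 9.51% of the HB list, 6.89% of the HP list, 0.765% of the MES list and 0.117% of the MAC list. The MES and HB lists among them had no quantitative PCR enrichment.

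The same 5 peaks each held 1 match to the C/EBP letters TTGCGCAA, TTGCACAA or TTGCATCA on either strand, 163 bases from the tRNA gene. The RefSeq genome sequence of this site (chr11:97702429-97702712, minus strand, the strand of the tRNA gene) is shown because it is the site behind the only member peak of the HB and HE lists, with the C/EBP match in capitals.
n-TNgtt8: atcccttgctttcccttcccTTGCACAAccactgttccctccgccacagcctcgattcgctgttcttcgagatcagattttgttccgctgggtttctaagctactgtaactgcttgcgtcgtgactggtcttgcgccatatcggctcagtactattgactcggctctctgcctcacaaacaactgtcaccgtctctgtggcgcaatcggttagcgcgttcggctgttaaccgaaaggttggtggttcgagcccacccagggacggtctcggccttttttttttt
Whether the peaks at this site belong to the tRNA gene, to the C/EBP match or to Psmb3 cannot be told apart from peak positions. With the window narrowed to 500 bp, a setting chosen after seeing the data, Psmb3 stayed bound in the 2 PU.1 lists only, and the MES, HB and HE C/EBPβ lists held 0 members, where 1.10%, 0.666% and 0.0827% of all coding genes were bound. Leaving out the HE list, also decided after seeing the data, put Psmb3 in 6 lists and left 35 members in at least 1 list and 11 in at least 1 of the shorter lists. The PU.1 peaks closest to its TSS lay at -160 bp in HP and -180 bp in MAC.

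The constitutive beta genes Psmb1 and Psmb2 were each bound in 4 lists. At Psmb1, HP C/EBPβ (-1474 bp), HP RUNX1 (-1676 bp) and MAC C/EBPβ (-1458 bp) peaks lay closer to the TSS of Tbp, the TATA-binding protein gene, which runs in the other direction from 1612 bp away. Their distances to the Tbp TSS were 138, 64 and 154 bp, and a MAC PU.1 peak at -26 bp lay at the start of Psmb1 itself, beside another at -1554 bp that was also closer to Tbp (58 bp). When each peak was given to its nearest TSS, Psmb1 was left with 1 list. At Psmb2, peaks of HP C/EBPβ at 3 bp (chr4:126677447-126677846) and HP GFI1B at -69 bp (chr4:126677375-126677774) stood on the start site. MAC C/EBPβ followed at -14 bp and MAC PU.1 at -106 and 629 bp, and every one of these peaks was nearest to the TSS of Psmb2.

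ELK4, an ETS factor that acts with serum response factor, had peaks in MES at Psmb5 (-120 bp, chr14:54617916-54618315), Psmd7 (-33 bp, chr8:107588316-107588715) and Psmd12 (-41 bp, chr11:107479288-107479687). All 3 peaks covered the start site. Psmb5 encodes a catalytic beta subunit with chymotrypsin-like activity, and Psmd7 and Psmd12 encode subunits of the lid. The promoters of Psmd12 and Psmb5 are shown as 300 bases of RefSeq GRCm38 sequence, from 250 bases before to 50 bases from the TSS on, because one holds the ETS letters CCGGAAGT and the other does not. Capitals mark the ETS match on the reverse strand of Psmd12, from -18 to -11 counted from the TSS as 0, and in Psmb5 a match to TGACNNNGC, the letters of the antioxidant response element, from -47 to -39.
Psmd12 (chr11:107479278-107479577, plus strand): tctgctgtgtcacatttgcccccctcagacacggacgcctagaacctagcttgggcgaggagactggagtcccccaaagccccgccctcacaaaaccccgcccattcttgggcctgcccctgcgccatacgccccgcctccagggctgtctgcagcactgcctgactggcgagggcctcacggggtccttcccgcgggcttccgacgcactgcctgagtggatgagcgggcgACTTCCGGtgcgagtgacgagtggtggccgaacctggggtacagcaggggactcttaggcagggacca
Psmb5 (chr14:54617946-54618245, minus strand): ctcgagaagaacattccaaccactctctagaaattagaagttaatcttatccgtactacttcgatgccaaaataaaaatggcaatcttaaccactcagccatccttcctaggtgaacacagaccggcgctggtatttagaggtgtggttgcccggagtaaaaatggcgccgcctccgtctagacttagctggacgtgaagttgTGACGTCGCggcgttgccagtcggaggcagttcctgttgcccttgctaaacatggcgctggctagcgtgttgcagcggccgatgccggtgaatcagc
Antioxidant response elements are bound by NFE2L1, the factor known to raise proteasome genes when the proteasome is inhibited. Psmd12 also held a match to its letters, from -247 to -239. Over whole lists, 14.1% of ELK4 peaks near coding TSS and 0.543% of the remaining ELK4 peaks held CCGGAAGT.

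HP PU.1 peaks lay at Psma5 (97 bp), Psmb3 (-160 bp), Psmc2 (-5 bp), Psmc3 (-1904 bp) and Psmd14 (-1 bp). All 5 genes were also in the MAC PU.1 list, each with an overlapping peak, and they made up 15.2% of its members. Over all coding genes 99.9% of those bound in HP PU.1 were bound in MAC PU.1, and they made up 18.8% of the latter. The 3 members in HP C/EBPβ (Psmb1, Psmb2 and Psmb3) were likewise all in MAC C/EBPβ with overlapping peaks, and they made up 13.6% of its members. Over all coding genes 97.7% of those bound in HP C/EBPβ were bound in MAC C/EBPβ, and they made up 10.6% of the latter. For PU.1 and C/EBPβ, nearly all genes bound in HP were thus bound in MAC, and most genes bound in MAC were not bound in HP, for members and for coding genes. RUNX1 peaks lay at 3 members and 684 coding genes in HP (977 peaks), and at 0 members and 23 coding genes in MAC (72 peaks). The HP and MAC lists also differed in length for PU.1 (10943 and 82866 peaks) and C/EBPβ (2716 and 55471). Each list had its own threshold and the longer list of each factor held more genes. These counts are therefore no measure of a change between stages.

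Peak sequences were searched at members that have a window in the RefSeq promoter table. Psmc2, an ATPase gene of the cap, was the only one of 4 such members whose HP PU.1 peak held the PU.1 letters GAGGAAGT. Its promoter is shown with that match in capitals, on the reverse strand from -9 to -2, inside the HP PU.1 peak (chr5:21785071-21785470).
Psmc2 (chr5:21785025-21785324, plus strand): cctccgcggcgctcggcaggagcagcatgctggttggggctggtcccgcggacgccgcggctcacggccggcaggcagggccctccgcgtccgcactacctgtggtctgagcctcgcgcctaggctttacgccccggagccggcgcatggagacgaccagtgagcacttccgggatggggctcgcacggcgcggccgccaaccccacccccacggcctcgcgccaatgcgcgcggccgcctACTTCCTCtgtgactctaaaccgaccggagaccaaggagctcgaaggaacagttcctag
Another match, to CCGGAAGT, lay from -85 to -78 in the same window. In the MAC PU.1 list 6 of 41 member peaks (14.6%) held GAGGAAGT, at Psma5, Psma6, Psmc1, Psmc2 and Psmd14, against 13.7% of all peaks near coding TSS and 26.8% of the remaining peaks. In the MAC C/EBPβ list 2 of 20 member peaks (10.0%), at Psmb3 and Psmd13, held C/EBP letters, against 10.9% near coding TSS and 15.3% elsewhere. In both long MAC lists, member peaks thus held the letters of the mapped factor about as often as promoter peaks in general.

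RUNX1 peaks in HP lay at Psma6 (-115 bp), Psmb1 and Psmd7 (88 bp, in the 5′ UTR). Psma6, an alpha subunit gene, has 2 annotated start sites, and both this peak and its MAC PU.1 peak lay at the downstream one, so that it was in no list when 1 start site was taken per gene. Psmd7 was in 4 lists, MES ELK4, HP RUNX1 and both long MAC lists, all at its start site. The MAC RUNX1 list, which holds no member, has 72 peaks.

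The immunoproteasome genes Psmb8, Psmb9 and Psmb10 were each bound in 2 lists, MAC C/EBPβ and MAC PU.1, and in none of the other 12. Their constitutive counterparts were in both long MAC lists as well, Psmb6 and Psmb7 in these 2 only and Psmb5 also in MES ELK4. With a window of 1 kb, Psmb5 and Psmb7 lost their MAC C/EBPβ peaks (1742 and 1911 bp) and were in 2 lists and 1 list. All 3 immunoproteasome genes stayed in both long MAC lists there. Of the other 37 members, 18 (48.6%) were in both long MAC lists, 30 (81.1%) in MAC PU.1 and 19 (51.4%) in MAC C/EBPβ, where the shares of all coding genes were 29.9%, 50.0% and 36.6%. At least 1 of the 12 other lists held 11 of the 37 and 0 of the 3, and 19.4% of all coding genes, so that absence from those lists was usual for any gene. They ranged from 0 to 7 lists, with a median of 2, equal to that of the immunoproteasome genes. With 3 genes no difference between these groups could be tested.

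Psmb8 (chr17:34198195-34201454, plus strand) had a MAC C/EBPβ peak at -490 bp and MAC PU.1 peaks at -1537 bp and 156 bp, the latter in the 5′ UTR. Psmb9 (chr17:34182030-34187330, minus strand) starts 226 bp from Tap1, which encodes a chain of the transporter that carries peptides into the endoplasmic reticulum. Its MAC C/EBPβ peak (-151 bp, chr17:34187282-34187681) spanned both start sites, and its MAC PU.1 peak (-411 bp, chr17:34187542-34187941) spanned that of Tap1. Both lay nearer to the Tap1 TSS, at 75 and 185 bp, so Psmb9 was in 0 lists when each peak went to its nearest TSS. Psmb10 (chr8:105935728-105938392, minus strand) had its peaks inside the gene, PU.1 at 277 bp in the 5′ UTR and C/EBPβ at 694 bp in a coding exon and at 1212 bp in an intron.

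Psmb8 and Psmb9 lie in the MHC, with Tap1 between them and Tap2, which encodes the other chain, beside them. The stretch from 5 kb outside Psmb9 to 5 kb outside Tap2 (chr17:34177030-34221321) held 2 MAC C/EBPβ peaks, 5 MAC PU.1 peaks and 0 peaks of the other 12 lists. The HP PU.1 peaks nearest to Psmb8 and Psmb9 lay 73374 and 62509 bp away, and the one nearest to Psmb10 lay 101293 bp away. None of the 3 genes thus had a PU.1 peak in its neighbourhood in the HP list, a shorter list (10943 peaks) with a threshold of its own.

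**Figure D4:**
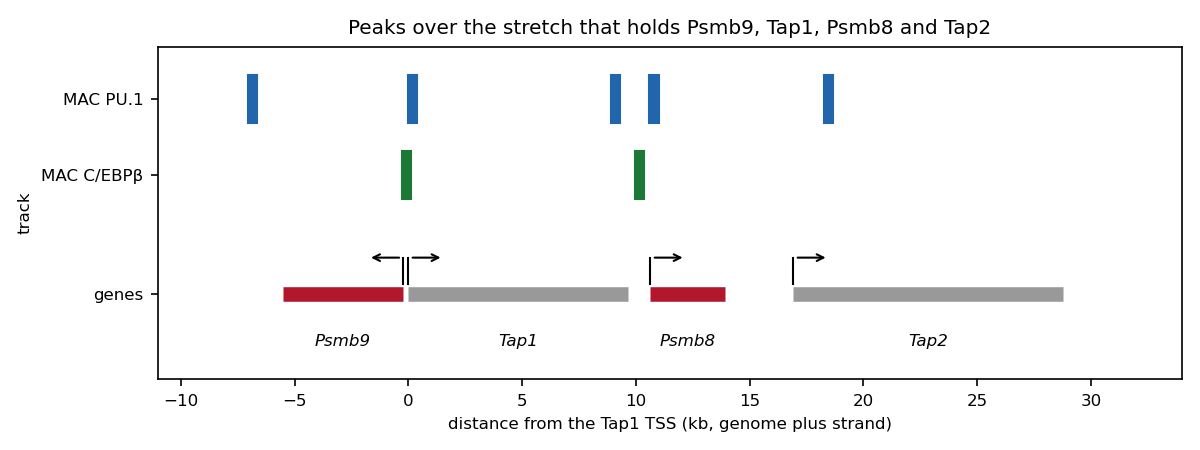
Peaks of the long MAC lists over Psmb9, Tap1, Psmb8 and Tap2, by distance from the Tap1 TSS (x axis, kb), with C/EBPβ peaks in green, PU.1 peaks in blue, genes as bars (proteasome genes red) and arrows at the start sites. One C/EBPβ and one PU.1 peak stand at the start shared by Psmb9 and Tap1, and the second C/EBPβ peak lies just before Psmb8.

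The promoters of Psmb9 and Psmb8 are shown because macrophage peaks reach into both, the C/EBPβ and PU.1 peaks of Psmb9 and the PU.1 peak of Psmb8 at 156 bp. Capitals mark the reverse of the CCAAT letters of NF-Y in Psmb9, and in Psmb8 a match to TTCNNNGAA, the letters bound by STAT factors, which act downstream of interferon, from -97 to -89.
Psmb9 (chr17:34187281-34187580, minus strand): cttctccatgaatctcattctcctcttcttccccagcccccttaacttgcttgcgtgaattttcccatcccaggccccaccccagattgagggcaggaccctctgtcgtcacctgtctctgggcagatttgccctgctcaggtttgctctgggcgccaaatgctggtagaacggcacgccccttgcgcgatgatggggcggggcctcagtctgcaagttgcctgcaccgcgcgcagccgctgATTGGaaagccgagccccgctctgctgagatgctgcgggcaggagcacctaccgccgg
Psmb8 (chr17:34197945-34198244, plus strand): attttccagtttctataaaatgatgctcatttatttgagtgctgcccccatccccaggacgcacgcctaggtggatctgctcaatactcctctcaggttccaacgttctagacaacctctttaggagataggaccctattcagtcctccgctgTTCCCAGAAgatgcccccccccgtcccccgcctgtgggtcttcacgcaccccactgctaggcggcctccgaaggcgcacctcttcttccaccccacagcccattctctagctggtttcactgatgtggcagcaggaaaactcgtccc
The Psmb8 match lay between its C/EBPβ peak and its PU.1 peak at 156 bp, inside neither. In the window of Psmb10 none of the letters searched was found.

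Promoter windows of 300 bases were found in the RefSeq table for 33 members (35 windows) and are described beside 21263 windows of coding genes. Psma8, Psmb1, Psmb2, Psmb7, Psmc3, Psmd3 and Psmd7 were not among them. Searched on both strands, the ETS letters CCGGAAGT stood in 7 member windows (20.0%), against 5.15% of all windows: in both windows of Psmc2 and in those of Psma6, Psmc1, Psmd6, Psmd12 and Psmd13. The PU.1 letters GAGGAAGT, which share GGAAGT with the former, stood in 3 (8.57%, against 3.13%), at Psma6, Psmc1 and Psmc2. Over 500 bases on each side of the TSS the shares were 22.9% against 7.37% for CCGGAAGT and 8.57% against 6.88% for GAGGAAGT.

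The letters AAGATGGC of YY1 were found in 3 windows (8.57%, against 3.05%), just after the TSS of Psma2, Psmb6 and Psmc5. TGACNNNGC was found in 5 (14.3%, against 13.0%), at Psmb5, Psmb6, Psmc6, Psmd9 and Psmd12, and CCAAT of NF-Y in 14 (40.0%, against 38.2%). GAAANNGAA, the letters of interferon regulatory factors, stood in 5 (14.3%, against 8.15%), at Psmb3, Psmb4, Psmc2, Psmd4 and Psmd9, and in none of the windows of Psmb8, Psmb9 and Psmb10. Over 500 bases on each side of the TSS these shares were 20.0% against 8.10% for YY1, 57.1% against 34.2% for TGACNNNGC, 71.4% against 70.3% for CCAAT and 45.7% against 24.3% for GAAANNGAA. The RUNX letters TGTGGTT were found in 1 window, that of Psmb5 (2.86%, against 4.71%). NF-κB letters (GGGNNTTCC) were found in 1 (2.86%, against 6.30%) and STAT letters in 2, at Psmb8 and Psmd2 (5.71%, against 7.69%). The GATA letters AGATAA were found in 2 (5.71%, against 9.65%), and for RUNX, NF-κB and GATA the members' share was also the smaller one over the wider stretch. For STAT it was the larger one there (34.3%, against 23.5%). The C/EBP letters (1 window, 2.86% against 2.06%) and GCGCATGCG of NRF1 (1 window, 2.86% against 2.35%) were each in 1 member, and over the wider stretch their shares were below those of all windows (2.86% against 5.24% and 2.86% against 3.22%). A match is a description of the letters, not of a site in use.

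Promoters rich in CpG dinucleotides are bound by many factors, so members were also set beside coding genes of their own promoter class. A window was called CpG-rich at a G+C content of at least 55% and an observed over expected CpG ratio of at least 0.65, which took in 16 member windows (45.7%, against 38.0% of all windows). In this class MAC PU.1 peaks lay at 13 of 16 members (81.2%, interval 54.4 to 96.0), against 74.1% of coding genes, and MAC C/EBPβ peaks at 8 (50.0%, interval 24.7 to 75.3), against 55.9%. Both long MAC lists together held 7 of these 16 members (43.8%), close to the 47.7% of coding genes. At least 1 list held 14 (87.5%, against 83.4%).

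In the remaining class MAC PU.1 peaks lay at 14 of 17 members (82.4%, interval 56.6 to 96.2), against 33.4% of coding genes, and MAC C/EBPβ peaks at 9 (52.9%, interval 27.8 to 77.0), against 23.6%. Members were bound about equally often in both classes, whereas coding genes were not. The classes cover the 33 members with a window. Of the members without one, all but Psma8 were in MAC PU.1, and all but Psma8 and Psmd3 in MAC C/EBPβ. Psmb8, Psmb9 and Psmb10 all fell in the remaining class, which takes in every window that missed either limit. Psmb5 (G+C 51.7%, ratio 0.999) and Psmc1 (47.0%, 0.966) missed only the G+C limit, and Psmb8 (55.3%, 0.523) missed only the ratio. It is thus not a class of low CpG content throughout. The higher share of members over all promoters was seen mainly in the remaining class, with no test made. The windows of members had a median observed over expected CpG ratio of 0.793, against 0.567 for all windows, so members below the limits may still hold more CpG than the coding genes beside them, whose part was not tested.

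**Figure D5:**
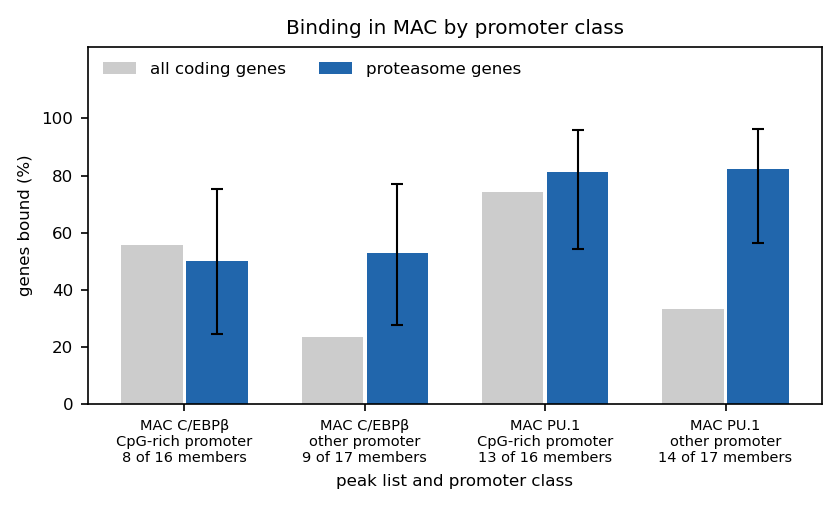
Share of genes bound (y axis, %) in MAC C/EBPβ and MAC PU.1 for CpG-rich promoters and other promoters (x axis). Coding genes (grey) and proteasome genes (blue, exact 95% intervals) are those with a promoter window. The blue bars are about level between classes (50.0% and 52.9%, 81.2% and 82.4%), and the grey bars fall from 55.9% to 23.6% and from 74.1% to 33.4%.

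A start site of another coding gene within 1 kb was found at 8 members (20.0%), against 10.3% of all coding genes. Besides Psmb9 and Tap1 these were Psma2 with Mrpl32, Psma4 with AY074887, Psma7 with Ss18l1, Psmc2 with Dnajc2, Psmc5 with Ftsj3, Psmd10 with Atg4a and Psmd13 with Sirt3, 19 to 226 bp apart at their closest. A peak at such a pair cannot be assigned to either gene from its position. Leaving these genes out of members and background changed none of the 18 counts of bound members by more than 1.5 times. It did change counts of letters, a setting chosen after seeing the data: CCGGAAGT then stood in 4 of 26 member windows (15.4%, against 4.19%), the YY1 letters in 1 (3.85%, against 2.58%), CCAAT in 9 (34.6%, against 37.9%), and the C/EBP and NRF1 letters in 0 (against 2.15% and 2.12%). The order of members and all windows turned for CCAAT, C/EBP and NRF1.

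Genes that act with the proteasome but fall outside the naming rule were counted as a list of 18. MAC PU.1 peaks lay at 17 of them (94.4%, interval 72.7 to 99.9), against 50.0% of all coding genes, and MAC C/EBPβ peaks at 12 (66.7%, interval 41.0 to 86.7), against 36.6%. Coding genes with a CpG-rich promoter had shares of 74.1% and 55.9%, which lie inside these intervals. The 18 genes were not split by promoter class. Tap1 was counted through the same peaks as Psmb9. The activator genes Psme1, Psme2, Psme3 and Psme4, the chaperone gene Pomp, the cap subunit gene Sem1 and Tap1 were in both, and Psmg2, a chaperone gene of the alpha ring, was in MAC C/EBPβ only. The inhibitor gene Psmf1, the deubiquitinase gene Usp14, the ubiquitin receptor gene Adrm1, the chaperone genes Psmg1 and Psmg3 and Tap2 were in MAC PU.1 only.

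The regulators Nfe2l2 and Nfe2l1 were in the most lists of this group. Nfe2l2, which encodes a factor of the oxidative stress response, was bound in 6, by C/EBPβ in MES, HB, HP and MAC, by GATA1 in HP and by PU.1 in MAC. Nfe2l1 was bound in 4, by ELK4 in MES, by GFI1B in HP and by both factors in MAC. Of the others, Uchl5 had an HP RUNX1 peak and Psmg4 an HP PU.1 peak, and each was in both long MAC lists.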

How the data were processed

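ChIP-seq peaks of 14 samples, 1 per factor and stage, were analysed. Per the labels and the study's methods, the authors aligned reads to mm10 (GRCm38) with Bowtie, called peaks with MACS against stage-matched input and refined them with polyPeak. Some samples combined technical runs. The sources used here give no tool versions. The deposited values are peak coordinates in bp, with no score, height or count, so the lists themselves carry no depth. The read totals that the study gives were not used here, and no test between stages was made.

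Start sites came from RefSeq GRCm38.p6 coding transcripts (curated where a gene has any, otherwise predicted), 26906 in all. All peaks lay within the chromosome lengths. Peak centres were matched to start sites with Python 3.11.15, NumPy 2.4.6, pandas 2.3.3 and SciPy 1.17.1, and figures were drawn with Matplotlib 3.10.9. The matching was tested on simulated peaks. Promoter sequences were those of RefSeq (GRCm38.p6).

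The members and lists were chosen with earlier results of these data known, and the naming rule itself uses no measured value. Genes named with values are Psmb5 to Psmb10, Psma8, Psmb11, Psmc3ip, every member bound outside the long MAC lists and every member bound in none. Others are named only to account for all members or where a value singles them out, and were then chosen after their values were seen. Alternatives were other windows (500 bp, 1 kb, 5 kb), other start sites, any overlapping base, the nearest start site only, peaks shared with another list, CpG-rich promoters only, and leaving out the HE list, the long MAC lists, Psmc3ip or shared promoters.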

Additional observations from a re-analysis of the deposited data

How the results depend on the processing

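No paired analysis was possible because each group holds 1 list, and for the same reason no replicate could be left out. The 18 counts of bound members stayed within 1.5 times under windows of 1 kb and 5 kb, 1 start site per gene, all annotated transcripts, any peak base in the window and the nearest start site only, and also without Psmc3ip and without shared promoters. Many of these counts were 3 or fewer, for which this limit says little. A fall from 3 to 2, as for HP C/EBPβ and HP RUNX1 at 1 kb, still met it. With a window of 500 bp, chosen after seeing the data, the C/EBPβ lists of MES, HB and HE held 0 members (against 1.10%, 0.666% and 0.0827% of coding genes) and that of HP held 1 (against 2.28%). Without the long MAC lists, 11 members were bound in at least 1 list (27.5%, interval 14.6 to 43.9). The share of all coding genes, 19.4%, lies inside this interval. With peaks that overlap another list only, MAC PU.1 held 20 members (50.0%, against 27.3% of coding genes), and 20 were bound in at least 1 list (against 29.3%). Both long MAC lists together then held 16 members (40.0%, against 21.5%), among them 1 of the 3 immunoproteasome genes. With CpG-rich promoters only, which leaves 16 members, MAC PU.1 held 13 (81.2%, against 74.1%), MAC C/EBPβ 8 (50.0%, against 55.9%), both of them 7 (43.8%, against 47.7%), HP C/EBPβ 1 (against 6.03%), HP RUNX1 1 (against 6.04%), HP GFI1B 0 (against 7.35%) and MES ELK4 0 (against 3.03%). In that class 14 members were bound in at least 1 list (87.5%, against 83.4%) and 5 in at least 1 of the 12 shorter lists (31.2%, against 30.9%), and 0 immunoproteasome genes were in both long MAC lists, since none has such a promoter. With 500 bases on each side of the TSS searched, which by itself adds matches, the antioxidant response element letters were found in 20 member windows (57.1%, against 34.2% of all windows), IRF in 16 (45.7%, against 24.3%), STAT in 12 (34.3%, against 23.5%), YY1 in 7 (20.0%, against 8.10%), NF-Y in 25 (71.4%, against 70.3%), GATA in 8 (22.9%, against 29.0%), RUNX in 4 (11.4%, against 14.1%) and NF-κB in 3 (8.57%, against 16.8%). Without genes sharing a promoter, chosen after seeing the data, the counts over 26 member windows were ETS 4 (15.4%, against 4.19%), NF-Y 9 (34.6%, against 37.9%), YY1 1 (3.85%, against 2.58%), C/EBP 0 (against 2.15%) and NRF1 0 (against 2.12%).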
